A study of Mus musculus with 12 samples.

Results

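Mitochondria keep a small circular genome of their own, and its genes were followed here in mouse 4T1 mammary carcinoma cells. The members are all genes that the expression table places on the chromosome MT, which are 37 of its 29937 genes: 13 mRNAs, 2 rRNAs and 22 tRNAs. RNA was sequenced from 12 libraries in 4 groups of 3: cells treated with OAP2, with Oxa, with APAP, and control cells titled PBS, whose treatment label reads DMSO. All groups carry the genotype label WT and are 1 adherent cell line. The labels state no dose, no treatment time and nothing further of the agents, and the series design text speaks of cell-derived xenografts where the labels speak of cells. Values of the PBS group come from columns named CON, matched to PBS because no other group lacks a drug, and their numbers 1 to 3 are those of the columns. Nothing says that the libraries are separate cultures, so every p-value measures only the spread between these libraries.

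Mitochondrial DNA is transcribed from both strands into long precursors that span nearly the whole circle. The tRNAs punctuate these precursors: RNase P cuts at their 5′ ends and the endonuclease ELAC2 at their 3′ ends, which releases the mRNAs and rRNAs between them. All of the encoded proteins are subunits of respiratory complexes or of the ATP synthase, the rRNAs and tRNAs serve the ribosome that makes them, and every other factor is imported from nuclear genes. Most of the mRNAs receive poly(A) tails (in human cells that of ND6 lacks a regular one), the rRNAs only a few added adenines, and the tRNAs a CCA end. The libraries were made from RNA captured on oligo(dT), so tailed mRNAs are captured, whereas what remains of rRNA and tRNA is a small and selected part of the whole. The tRNA genes are 59 to 75 bases long, shorter than the 150-base reads, and counts over them therefore do not measure mature tRNA.

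Total counts per library lay between 64071751 and 71500487. Summed FPKM (fragment counts scaled to transcript length and library size) of 8 epithelial markers was high in every library, between 1169 and 1532. The library PBS 2 stood apart by blood cell RNA: of 6 red blood cell markers 4 were detected, with a summed FPKM of 231 in PBS 2 and at most 0.370 in any other library, and of 7 neutrophil markers 5 were detected, with 67.1 in PBS 2 and at most 0.720 elsewhere. Of 8 macrophage markers 3 were detected, with summed FPKM of 16.3 to 20.7 in OAP2, 13.2 to 17.2 in Oxa, 12.3 to 17.5 in APAP and 12.1 to 46.2 in PBS, highest in PBS 1. Whether this is more such cells or more RNA per cell cannot be told apart. The part of such RNA in the results was not tested. For the members, values without PBS 2 or PBS 1 are given where they end a call or change how many lie above 0.

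The mitochondrial mRNAs were among the most abundant transcripts of these cells. Of the 10 genes with the highest mean FPKM, 6 were mitochondrial, and all 13 mRNAs were among the first 50. The rest of these 10 include Gm10925 (mean FPKM 3939.7) and Gm28661 (3624), nuclear copies of mt-Atp6 and mt-Co2 that are described below. Levels are compared between genes as FPKM, which is per length. The highest was mt-Co1, catalytic subunit 1 of cytochrome c oxidase (complex IV), with FPKM of 4279 ± 1016 in OAP2, 4726 ± 446 in Oxa, 5004 ± 487 in APAP and 4674 ± 1008 in PBS (SD, n = 3 libraries each). Close below it, by the mean over all 12 libraries, were mt-Atp8 at 4316 and mt-Atp6 at 3669, both subunits of the ATP synthase, with mt-Cytb at 3699 (cytochrome b of complex III), mt-Co2 at 3625 (complex IV) and mt-Nd1 at 3223 (complex I). The spread between libraries exceeded most steps between neighbours in that order. A lower tier began with mt-Nd2 at 1943 and mt-Nd4 at 1730.0, followed by mt-Co3 at 1391 and mt-Nd4l at 1372. The lowest mRNAs were mt-Nd5 at 905, mt-Nd6 at 774 and mt-Nd3 at 762, all subunits of complex I. mt-Nd6 is the only mRNA among the 9 members encoded on the minus strand. The rRNAs stood far below the mRNAs after poly(A) capture, with a mean FPKM of 296 for mt-Rnr2, the large ribosomal RNA, and 145 for mt-Rnr1, the small one.

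**Figure D1:**
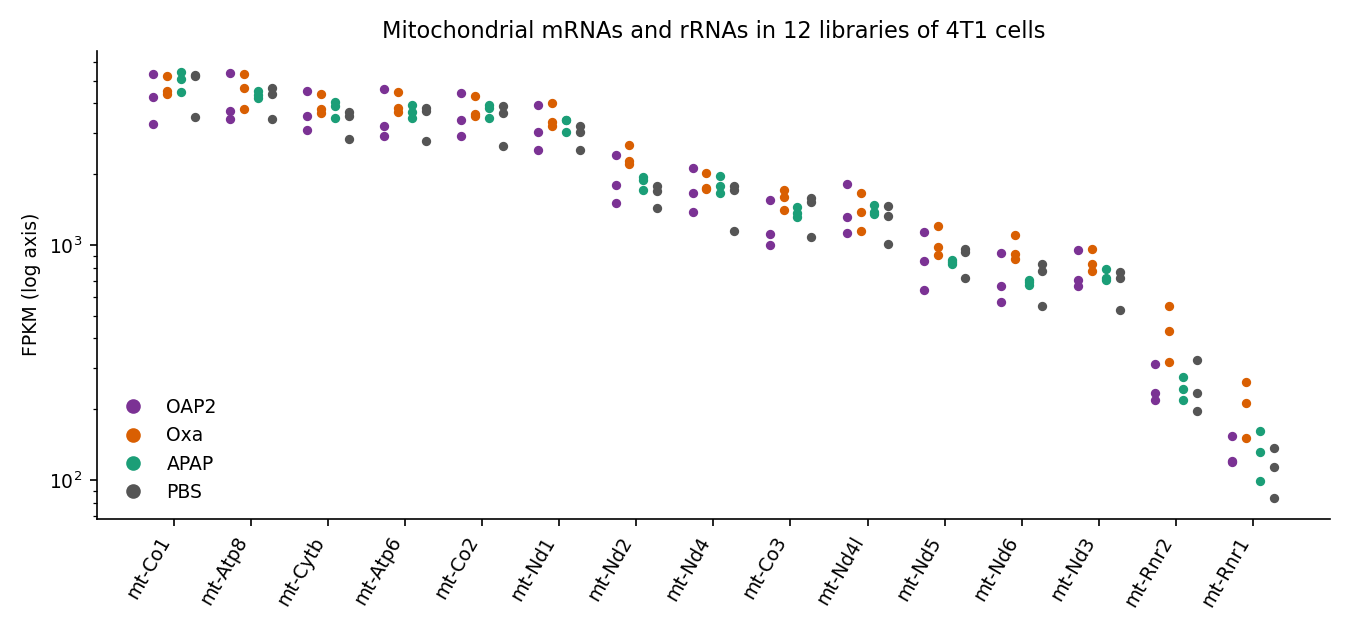
FPKM (log axis) of the 13 mitochondrial mRNAs and 2 rRNAs in each of the 12 libraries, ordered by their mean over all libraries. Each point is 1 library, coloured by group; mt-Co1 is the highest and mt-Rnr1 the lowest, and the highest points of mt-Rnr1 are Oxa 1 and Oxa 2, at 260.1 and 213.

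The 3′ ends of the mRNAs show how closely these genes depend on their tails. Of the 13 mRNAs, 3 have annotated lengths that leave 1 base over whole codons: mt-Co3, mt-Nd4 and mt-Cytb. That last base is a T, the start of a stop codon that polyadenylation of the RNA completes. Their last 30 bases are shown first, with the lone T in capitals. Those of mt-Nd2, mt-Co1 and mt-Co2 follow, with their annotated stop codons in capitals. The AG that ends mt-Nd2 is also the first 2 bases of mt-Tw, so a cut at the 5′ end of mt-Tw would leave mt-Nd2 the T alone. mt-Nd1 shares its last 2 bases with mt-Ti in the same way, so annotated lengths alone do not show which stop codons need a tail. The sequences are from GENCODE M21 (GRCm38), plus strand, 5′ to 3′, at MT:9361-9390, MT:11515-11544, MT:15259-15288, MT:4922-4951, MT:6843-6872 and MT:7667-7696 in the order shown.
mt-Co3: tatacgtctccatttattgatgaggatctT
mt-Nd4: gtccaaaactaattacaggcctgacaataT
mt-Cytb: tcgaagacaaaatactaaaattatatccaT
mt-Nd2: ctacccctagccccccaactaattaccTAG
mt-Co1: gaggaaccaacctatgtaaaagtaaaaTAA
mt-Co2: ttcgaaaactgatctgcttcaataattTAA

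Not every mRNA count can be assigned to the mitochondrion alone. A search of all other GENCODE M21 transcripts found 11 nuclear genes with stretches of at least 100 bases and 95% identity to a mitochondrial transcript. Of these, 7 matched at 99% or more and lie together on chromosome 1, between bases 24611535 and 24616197 on the minus strand, a nuclear copy of mitochondrial sequence. Gm28661 matches mt-Co2 at 100% over 681 of 684 bases, and its FPKM was 0.995 to 1.00 times that of mt-Co2 in all 12 libraries. The same near-equality held for Gm28437 with mt-Co3 (0.995 to 1.00), Gm10222 with mt-Nd4l (0.997 to 1.01), Gm28438 with mt-Nd3 (1.01 to 1.02) and Gm10925 with mt-Atp6 (1.07 to 1.08). Partial copies had lower ratios: Gm28439, which covers 876 of the 1378 bases of mt-Nd4, was at 0.646 to 0.703, and Gm29216, which covers 483 of the 1545 bases of mt-Co1, was at 0.276 to 0.322.

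**Figure D2:**
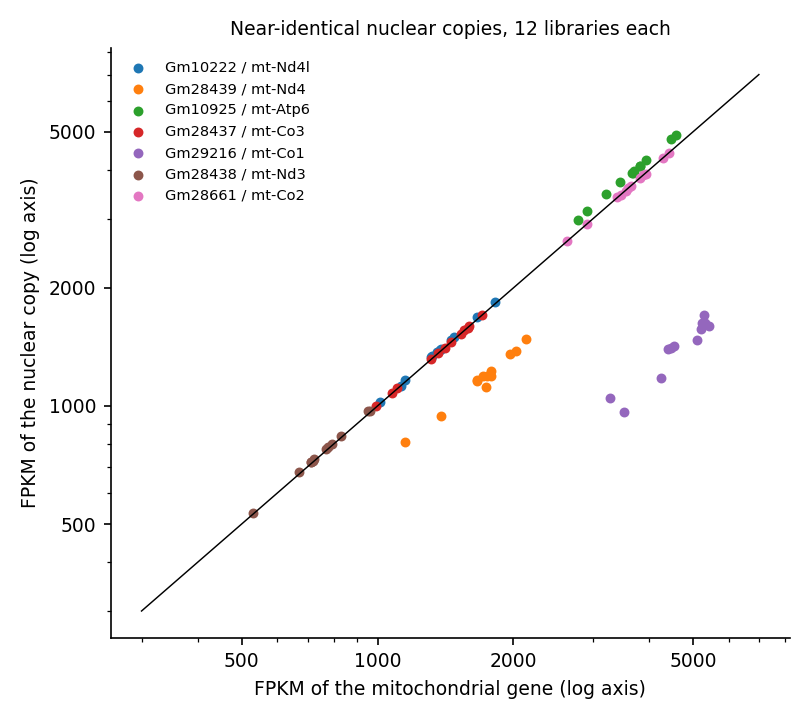
FPKM of the 7 near-identical nuclear copies on chromosome 1 against FPKM of the mitochondrial gene each one copies (both axes log), with 12 points, 1 per library, for each pair and a line at equality. The 5 copies that cover nearly all of their gene lie on or just above the line, and the partial copies Gm28439 and Gm29216 lie below it.

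The remaining 4 copies, with identity below 99%, reached an FPKM of 15.0 at most. Counts of the 7 copies together made up 0.736 to 1.26% of all counts in a library. No source used here states how reads that match both places were divided, so levels of mt-Co1, mt-Co2, mt-Co3, mt-Atp6, mt-Nd3, mt-Nd4 and mt-Nd4l are uncertain. The other 6 mRNAs (mt-Nd1, mt-Nd2, mt-Nd5, mt-Nd6, mt-Cytb and mt-Atp8) and both rRNAs had no annotated copy at 99% or more, though mt-Nd2 and mt-Nd5 have partial copies at 96.7% and 95.2%. The search covered annotated transcripts only. mt-Atp8 lies between mt-Co2 and mt-Atp6, whose copies are neighbours in the block on chromosome 1, so its level is uncertain too. The tRNAs are too short for this search. Some neighbours also overlap: mt-Atp8 shares 43 bases with mt-Atp6, mt-Nd4l shares 7 with mt-Nd4, and mt-Nd5 shares 14 with mt-Nd6 on the opposite strand. Whether counting used the strand is not given, so reads from a gene and its antisense partner cannot be told apart.

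The share of a library taken by the mitochondrial mRNAs varied as much within groups as between them. The 13 mRNAs held 4.13, 3.21 and 2.68% of all counts in OAP2 libraries 1 to 3, 4.14, 3.52 and 3.51% in Oxa, 3.64, 3.38 and 3.78% in APAP, and 3.68, 2.50 and 3.48% in PBS. All groups overlapped, and the lowest share was in PBS 2. The rRNAs differed more: for each 100 mRNA counts there were 1.85, 1.83 and 2.11 rRNA counts in OAP2, 3.24, 3.08 and 2.22 in Oxa, 1.48, 1.89 and 1.9 in APAP, and 1.61, 1.82 and 2.21 in PBS. Oxa 1 and Oxa 2 were highest, while Oxa 3 lay barely above PBS 3. For each 1000 mRNA counts the tRNA genes received 1.88, 1.86 and 1.88 counts in OAP2, 2.37, 2.30 and 2.46 in Oxa, 1.75, 1.97 and 1.75 in APAP, and 2.12, 1.92 and 2.22 in PBS. The 3 Oxa libraries were above all 9 others.

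**Figure D3:**
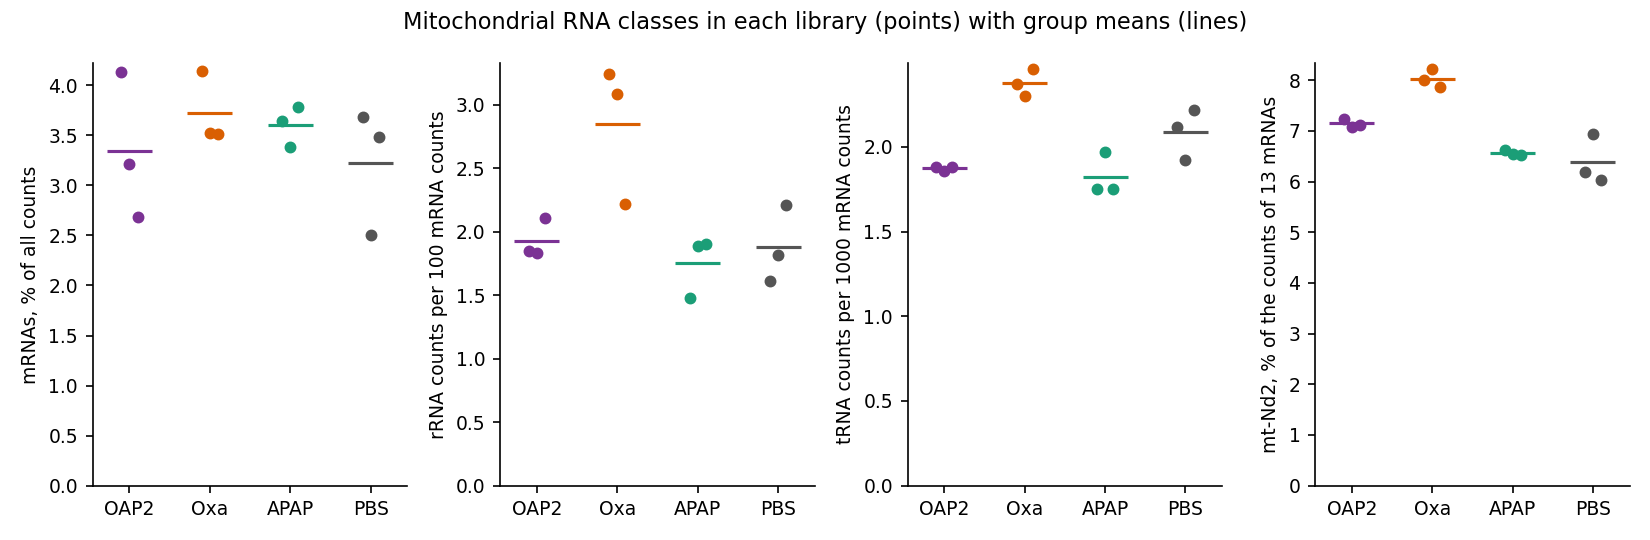
From left to right, the mitochondrial mRNAs in % of all counts, rRNA counts per 100 mRNA counts, tRNA counts per 1000 mRNA counts, and mt-Nd2 in % of the counts of the 13 mRNAs; each point is 1 library, each line a group mean, and all axes start at 0. The Oxa libraries are the highest in the panels of tRNA (2.30 to 2.46) and of mt-Nd2 (7.86 to 8.23), and the mRNA shares of the groups overlap.

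Differences in level were tested with edgeR's quasi-likelihood test across 12036 genes, those that reached an FPKM of 1 in 3 or more of the 12 libraries. Calls were made where the p-value, adjusted over all these genes by the Benjamini-Hochberg method, was below 0.05. Of the 37 mitochondrial genes 34 entered the test: all 13 mRNAs, both rRNAs and 19 tRNAs. The tRNA genes for phenylalanine, glycine and valine (mt-Tf, mt-Tg, mt-Tv) did not pass the minimum, with FPKM of at most 1.55, 0.850 and 1.49 in any library. Of the 34, 32 also reached the minimum without the Oxa libraries, and mt-Ti and mt-Td did not, so these 2 entered only through the group in which they were highest.

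Against PBS, mitochondrial genes were called only for Oxa with edgeR. Both rRNAs and 1 mRNA rose, namely mt-Rnr1, mt-Rnr2 and mt-Nd2, and none fell. These are 3 of 34 tested members, or 8.82%, not far from the background: over all tested genes 5.35% were called higher and 4.76% lower. mt-Rnr1 (MT:70-1024), the RNA of the small mitochondrial ribosomal subunit, had FPKM of 260.1, 213 and 151 in Oxa 1 to 3, against 113, 84.1 and 137 in PBS 1 to 3. The groups did not overlap, although Oxa 3 was close to PBS 3, and the log2 fold change was 0.92 (SE 0.22, edgeR adjusted p = 0.0199). mt-Rnr2 (MT:1094-2675), the RNA of the large subunit, had FPKM of 549.7, 430.2 and 318 in Oxa, against 235, 197 and 325 in PBS. Here Oxa 3 was just below PBS 3, and the log2 fold change was 0.79 (SE 0.21, edgeR adjusted p = 0.0300). mt-Nd2 (MT:3914-4951), a membrane subunit of complex I, had FPKM of 2659.8, 2274 and 2204 in Oxa, against 1779, 1436 and 1703 in PBS, with no overlap and a log2 fold change of 0.54 (SE 0.15, edgeR adjusted p = 0.0360).

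These calls lie near the threshold. No member was called in this comparison without Oxa 1, without Oxa 2 or without PBS 1, and without PBS 2 the same 3 were called, with log2 fold changes of 0.75 for mt-Rnr1, 0.64 for mt-Rnr2 and 0.46 for mt-Nd2. mt-Nd2 alone also lost its call without Oxa 3 (adjusted p = 0.0566) and without PBS 3 (0.0871), and scaling the libraries to the mitochondrial mRNAs in place of all genes left no call (log2 fold changes of 0.70, 0.57 and 0.33). With only the 6 libraries compared, mt-Rnr1 (edgeR adjusted p = 0.0656) and mt-Rnr2 (0.0913) lost their calls. In limma on log2(FPKM + 1), mt-Rnr2 (adjusted p = 0.0517) and mt-Nd2 (0.0789) were not called, whereas mt-Te was (0.0433).

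All 34 tested members had a log2 fold change above 0 between Oxa and PBS, a uniform sign that depended on single libraries. It was 31 of 34 without PBS 2, where mt-Co1, mt-Tp and mt-Ts1 turned below 0, 33 without Oxa 1 (mt-Co1 below 0) or Oxa 3 (mt-Tp below 0), 31 with array quality weights and 27 when scaled to the mitochondrial mRNAs. Among the 34 are mt-Ti (1.24, the highest) and mt-Td (0.59), which entered the test only through Oxa, so a rise of these 2 was favoured in advance. Both are also in the tRNA median given next, which was not computed without them. With all libraries the members had medians of 0.24 over the mRNAs, 0.85 over the rRNAs and 0.70 over the tRNAs, beside -0.01 over all genes tested; members come from shared precursors and are not independent. In 8 members all 3 Oxa libraries lay above all 3 PBS libraries, on CPM (counts scaled to library size, here with TMM factors), and none lay below; over all tested genes 15.1% lay above and 15.2% below. Among complex I mRNAs, mt-Nd6 had FPKM of 1101, 869 and 911 in Oxa, against 832, 552 and 771 in PBS, and the log2 fold change of 0.43 (SE 0.18) did not pass (edgeR adjusted p = 0.135); without PBS 2 it was 0.27. The smallest difference was that of mt-Co1, with a log2 fold change of 0.02 (SE 0.17, edgeR adjusted p = 0.947), which was -0.14 without PBS 2 and -0.06 without Oxa 1.

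The make-up of the mRNA pool differed between groups for some of its members, a description chosen after the values were seen and not tested. Of the 13 shares of mRNA counts, OAP2 and PBS did not overlap in 6, Oxa and PBS in 4, and APAP and PBS in 2. OAP2 and Oxa did not overlap in 6, OAP2 and APAP in 4, and Oxa and APAP in 7. The others overlapped. The shares add up to a whole and so are not independent, and no such count of shares over other genes stands beside them. On scaled CPM, another measure, 15.1% of all tested genes lay above and 15.2% below without overlap for Oxa against PBS. For OAP2 against Oxa 16.5% lay above and 20.0% below. The counts of shares are therefore not read as particular to the mRNAs. The examples are mt-Nd2 and mt-Co1, in both of which APAP and PBS overlapped. mt-Nd2 took 7.24, 7.08 and 7.12% of the counts of the 13 mRNAs in OAP2, 8.00, 8.23 and 7.86% in Oxa, 6.63, 6.55 and 6.53% in APAP, and 6.19, 6.94 and 6.04% in PBS. The Oxa libraries were highest and the OAP2 libraries next, with no overlap between either of them and any other group. The ratio of mt-Nd2 to mt-Nd1, its neighbour across 3 tRNA genes, gave the same order in FPKM: 0.607, 0.594 and 0.597 in OAP2, 0.662, 0.679 and 0.684 in Oxa, 0.557, 0.566 and 0.576 in APAP, and 0.554, 0.565 and 0.563 in PBS. Neither gene has a near-identical annotated copy. mt-Co1, which has a partial one, took 23.8, 24.9 and 23.1% of the mRNA counts in OAP2, 23.4, 23.8 and 24.1% in Oxa, 26.6, 25.6 and 27.1% in APAP, and 27.4, 25.2 and 27.6% in PBS. Its share in the OAP2 and Oxa libraries was below that in all APAP and PBS libraries.

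OAP2 against PBS gave no call among the 34 members, at 2.14% of all tested genes called higher and 3.11% lower. At an unadjusted p below 0.05 with edgeR there were 6 of the 34 members, all tRNAs, beside 2499 of the 12036 genes tested, and DESeq2 called 1 member. Of all 34 log2 fold changes 15 lay above 0, which became 8 without PBS 2 and 20 without PBS 1. The mRNAs differed little, with log2 fold changes between -0.19 and 0.23. mt-Nd2 had FPKM of 2402, 1798 and 1507 in OAP2, against 1779, 1436 and 1703 in PBS, groups that overlapped (log2 fold change 0.23, SE 0.15, edgeR adjusted p = 0.438). The rRNAs had log2 fold changes of 0.25 (SE 0.22) for mt-Rnr1 and 0.03 (SE 0.21) for mt-Rnr2. The tRNA nearest to a call was mt-Tm, the methionine tRNA directly before mt-Nd2, with FPKM of 27.3, 15.3 and 13.5 in OAP2, against 8.16, 6.55 and 9.43 in PBS. All 3 OAP2 libraries were above PBS, and the log2 fold change of 1.21 (SE 0.34) rested on 82 to 159 counts in OAP2 and 37 to 52 in PBS (edgeR adjusted p = 0.0620). It was called without OAP2 3, at a log2 fold change of 1.40 (edgeR adjusted p = 0.0338), and without PBS 2 the calls were instead mt-Ta, mt-Tt and mt-Tp, all lower in OAP2, with log2 fold changes of -1.25, -1.22 and -0.78.

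APAP against PBS gave no call among the members either, and over all tested genes 0% were called higher and 0.0166% lower. With edgeR 3 of the 34 members had an unadjusted p below 0.05, beside 1103 of the 12036 genes tested, and DESeq2 called 0 members. The lowest adjusted p of any member was 0.465 (edgeR). Among the 34 log2 fold changes 16 lay above 0, which became 11 without PBS 2 and 21 without PBS 1. The log2 fold changes ran from -0.01 to 0.26 over the mRNAs, with medians of 0.18 over the mRNAs and -0.76 over the tRNAs. The 3 comparisons with PBS share their controls, and the tRNA medians stood at -0.55 for OAP2, 0.70 for Oxa and -0.76 for APAP.

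Between OAP2 and Oxa the calls were mostly in the tRNA genes. OAP2 was lower for 7 of 34 members (20.6%), which were mt-Rnr2 and 6 tRNAs, and higher for none; over all tested genes 6.91% were called lower and 6.02% higher. Without mt-Ti and mt-Td, which entered the test only through Oxa, 6 of 32 were lower (18.8%). The median log2 fold change was -0.14 over the mRNAs, -0.72 over the rRNAs and -1.22 over the tRNAs (-1.13 without mt-Ti and mt-Td), beside 0.00 over all genes. In 13 members (11 without mt-Ti and mt-Td) all 3 OAP2 libraries lay below all 3 Oxa libraries and in 1, mt-Tm, they lay above; over all tested genes 20.0% lay below and 16.5% above. In FPKM, mt-Tm of OAP2 3 at 13.5 was level with Oxa 3 at 13.8.

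**Figure D4:**
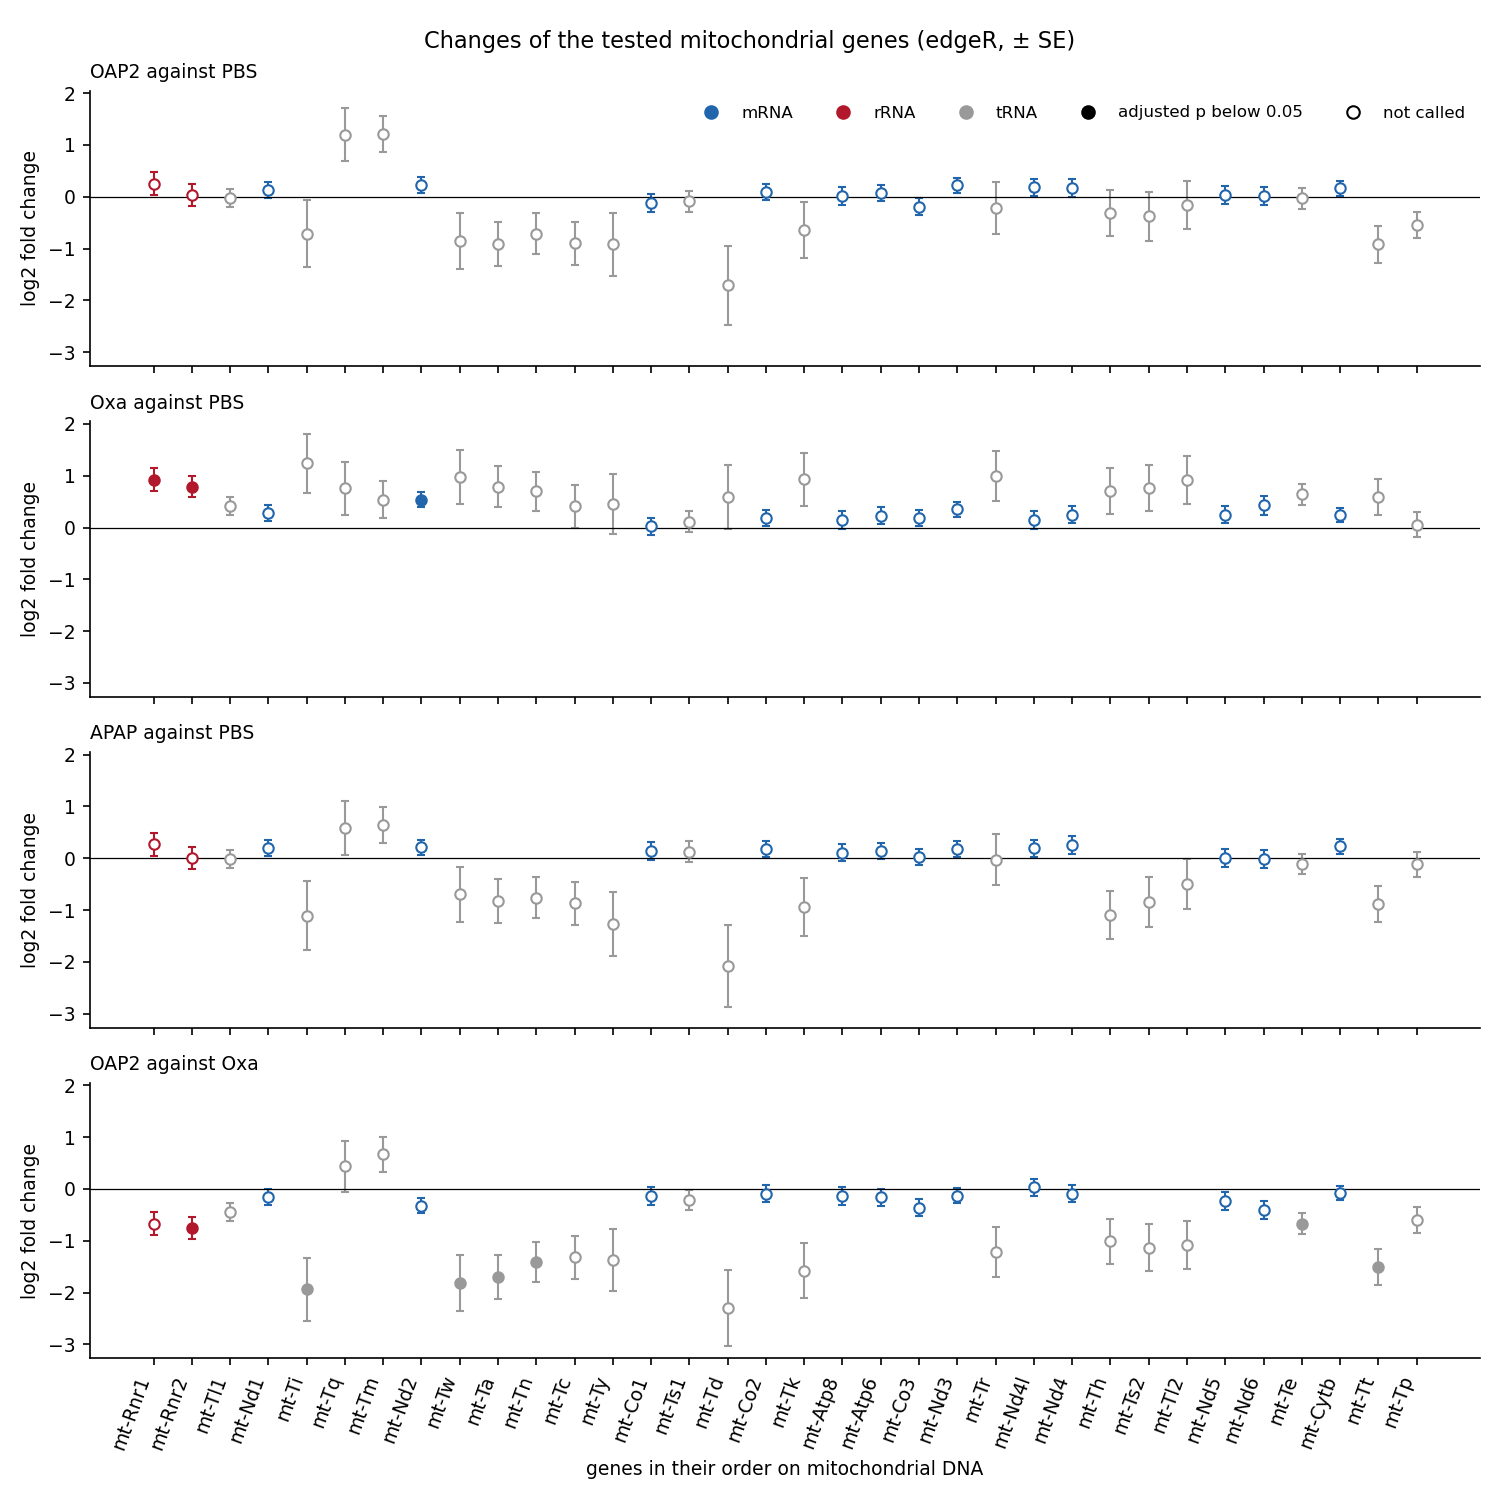
Log2 fold changes (edgeR, bars ± SE) of the 34 tested mitochondrial genes in their order on mitochondrial DNA, for OAP2 against PBS, Oxa against PBS, APAP against PBS and OAP2 against Oxa; filled points have an adjusted p below 0.05. All points of the panel of Oxa against PBS lie above 0 and 3 are filled, the OAP2 and APAP panels against PBS have none, and the lowest panel has 7 filled points below 0, of which 6 are tRNAs.

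The 6 tRNA genes lower in OAP2 than in Oxa carry isoleucine (mt-Ti), tryptophan (mt-Tw), alanine (mt-Ta), asparagine (mt-Tn), glutamate (mt-Te) and threonine (mt-Tt). Their sequences are given with mt-Tm, the member that lay the other way, and mt-Tp, the proline tRNA next to mt-Tt. Each is the strand of the RNA, 5′ to 3′, from GENCODE M21 (GRCm38) without the added CCA, with the anticodon in capitals; mt-Ta, mt-Tn, mt-Te and mt-Tp are on the minus strand. Positions in the order shown are MT:3706-3774, MT:4950-5016, MT:5018-5086, MT:5089-5159, MT:14071-14139, MT:15289-15355, MT:3845-3913 and MT:15356-15422.
mt-Ti: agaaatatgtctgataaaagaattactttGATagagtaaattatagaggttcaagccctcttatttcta
mt-Tw: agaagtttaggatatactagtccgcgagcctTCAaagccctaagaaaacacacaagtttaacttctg
mt-Ta: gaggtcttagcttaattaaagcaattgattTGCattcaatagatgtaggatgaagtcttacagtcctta
mt-Tn: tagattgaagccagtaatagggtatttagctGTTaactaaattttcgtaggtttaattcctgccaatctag
mt-Te: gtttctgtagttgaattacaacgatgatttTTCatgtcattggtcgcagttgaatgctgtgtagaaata
mt-Tt: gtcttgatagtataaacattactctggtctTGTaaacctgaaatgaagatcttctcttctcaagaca
mt-Tm: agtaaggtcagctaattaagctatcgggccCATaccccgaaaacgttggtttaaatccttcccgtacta
mt-Tp: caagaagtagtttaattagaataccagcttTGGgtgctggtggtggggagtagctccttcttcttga

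The threonine tRNA, first after the T that ends mt-Cytb, had FPKM of 13, 8.17 and 9.61 in OAP2, against 31.4, 25.8 and 31.7 in Oxa. All OAP2 libraries were well below Oxa, from 46 to 74 counts against 137 to 171, and mt-Tt fell by 1.51 on the log2 scale (SE 0.35, edgeR adjusted p = 0.0142). Its antisense neighbour mt-Tp had FPKM of 48.1, 35.2 and 40.7 in OAP2, against 65.0, 54.4 and 68.8 in Oxa, also without overlap, at a log2 fold change of -0.60 that did not pass (SE 0.25, edgeR adjusted p = 0.133).

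Between mt-Nd2 and mt-Co1 lies a run of 5 tRNA genes, of which mt-Tw follows mt-Nd2 on its strand and mt-Ta, mt-Tn, mt-Tc and mt-Ty are antisense to it. mt-Ta had FPKM of 6.60, 6.81 and 4.55 in OAP2, against 20.3, 14.2 and 24.7 in Oxa, and fell by 1.70 on the log2 scale (SE 0.42, edgeR adjusted p = 0.0187). mt-Tn had FPKM of 5.89, 6.41 and 4.36 in OAP2, against 15.0, 11.3 and 19.3 in Oxa, and fell by 1.41 (SE 0.39, edgeR adjusted p = 0.0312). mt-Tw had FPKM of 6.80, 4.89 and 2.90 in OAP2, against 19.2, 13.6 and 20.0 in Oxa, and fell by 1.82 (SE 0.54, edgeR adjusted p = 0.0404). It shares its first 2 bases with the end of mt-Nd2 on the same strand, and the part of mt-Nd2 reads in its counts was not tested. The neighbours mt-Tc, with a log2 fold change of -1.32 (edgeR adjusted p = 0.0570), and mt-Ty, with -1.37 (0.158), did not pass, and all 5 were without overlap. Together the 5 genes received 0.555, 0.626 and 0.542 counts per 10000 mRNA counts in OAP2, 1.36, 1.27 and 2.02 in Oxa, 0.496, 0.716 and 0.416 in APAP, and 1.02, 0.696 and 1.42 in PBS. PBS spanned the range between the OAP2 and Oxa libraries, with PBS 2 lowest and PBS 3 within the range of Oxa.

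mt-Te, the glutamate tRNA on the minus strand between mt-Nd6 and mt-Cytb, was the most abundant of the called tRNA genes. It had FPKM of 130.0, 112 and 82.0 in OAP2, against 198, 157 and 163 in Oxa, and fell by 0.67 on the log2 scale (SE 0.20, edgeR adjusted p = 0.0404). Against PBS it was higher in Oxa at a log2 fold change of 0.64 (SE 0.20), which did not pass (edgeR adjusted p = 0.0561). mt-Ti rested on few reads, with 6, 5 and 6 counts in OAP2 and 28, 12 and 23 in Oxa, and its log2 fold change of -1.94 (SE 0.60) was only just called, with an edgeR adjusted p that rounds to 0.05. It is also a member that entered the test through Oxa alone, and it shares 3 bases with the antisense mt-Tq and 2 with mt-Nd1.

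The rRNAs were lower in OAP2 than in Oxa as well. mt-Rnr2 had FPKM of 311, 234 and 219.8 in OAP2, all below the 549.7, 430.2 and 318 in Oxa, though OAP2 1 and Oxa 3 nearly met (log2 fold change -0.76, SE 0.21, edgeR adjusted p = 0.0300). mt-Rnr1 had FPKM of 153, 119 and 120.3 in OAP2, against 260.1, 213 and 151 in Oxa, groups that overlapped (log2 fold change -0.67, SE 0.22, edgeR adjusted p = 0.0619). mt-Nd2 was not called here either, at a log2 fold change of -0.32 (SE 0.15, edgeR adjusted p = 0.182).

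As in Oxa against PBS, single libraries moved the calls between OAP2 and Oxa: 0 members were called without Oxa 1, 1 without OAP2 2 or OAP2 3, 2 without Oxa 2, 3 without Oxa 3 and 6 without OAP2 1. mt-Tt was called in 4 of these 6 fits, with an adjusted p of at most 0.0550, whereas mt-Ti, mt-Tw and mt-Tn were called in 0 of 6, and no direction changed.

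**Figure D5:**
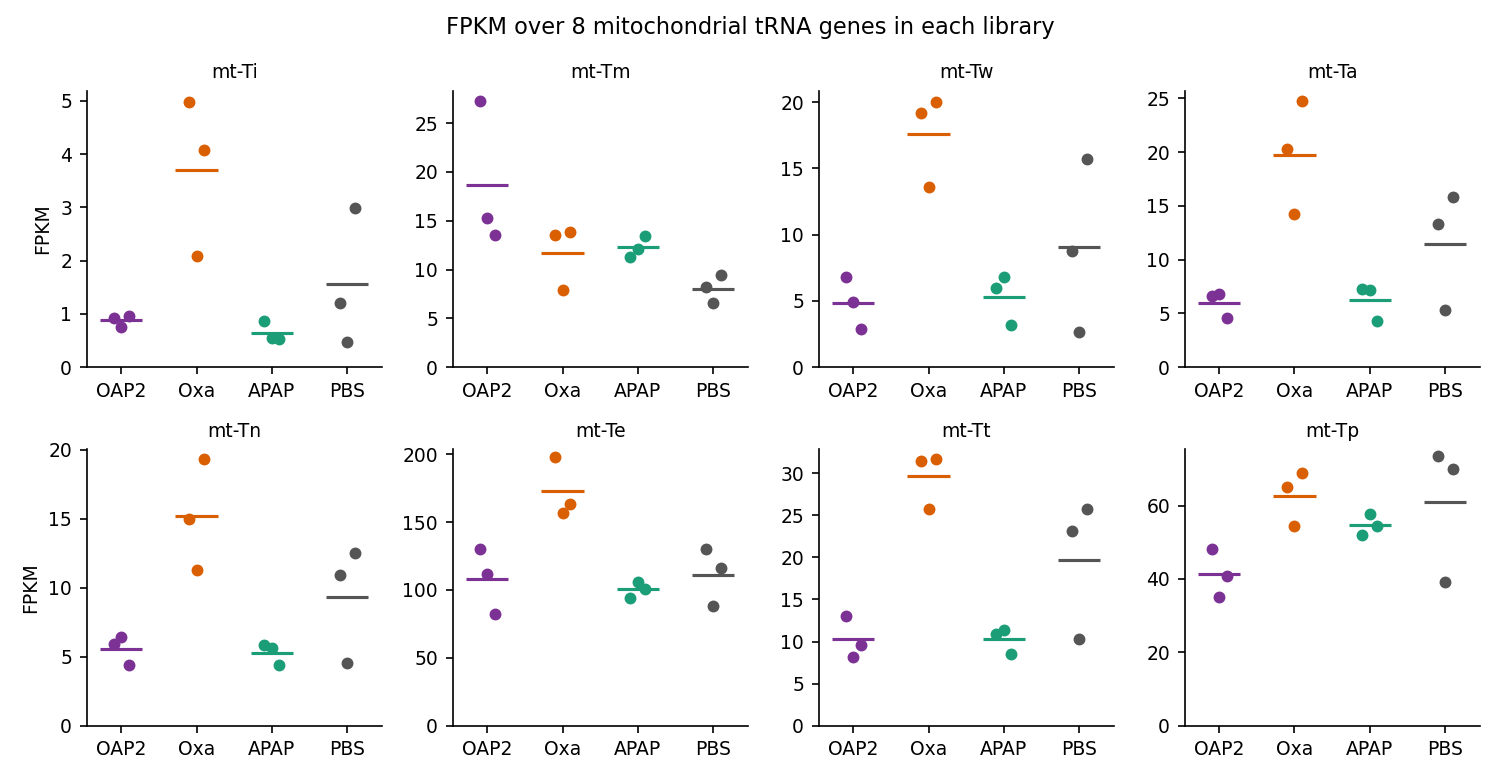
FPKM over 8 mitochondrial tRNA genes, with 1 point per library, a line at each group mean and axes that start at 0. In mt-Ti, mt-Tw, mt-Ta, mt-Tn, mt-Te and mt-Tt the OAP2 libraries lie below the Oxa libraries, in mt-Tm they lie above the PBS libraries, and the PBS libraries spread widely, from 0.480 to 2.99 in mt-Ti.

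The tRNA genes were unequal in level, and the called ones were mostly not the abundant ones. The 4 highest, mt-Tl1 (leucine), mt-Ts1 (serine), mt-Te and mt-Tp, held 81.2 to 92.4% of all tRNA counts of a library. mt-Tl1, which follows mt-Rnr2, had a mean FPKM of 270.1 over all libraries and mt-Ts1, antisense to the end of mt-Co1 with 3 shared bases, had 272. mt-Ts1 had a log2 fold change of -0.21 (SE 0.20, edgeR adjusted p = 0.546) between OAP2 and Oxa. At the low end, mt-Td (aspartate) had 1 to 3 counts per library in OAP2 and 9 to 14 in Oxa, and was not called (edgeR adjusted p = 0.0544). In base composition the classes overlapped, with 31.9 to 41.1% G and C in the mRNAs, 35.4 to 35.8% in the rRNAs and 17.1 to 44.9% in the tRNAs. The longest run of A within a member was 3 to 8 bases in the mRNAs, 5 to 7 in the rRNAs and 2 to 8 in the tRNAs.

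OAP2 against APAP gave no call among the 34 members, and none at an unadjusted p below 0.05 with edgeR, beside 1835 of the 12036 genes tested. DESeq2 called 0 members as well. Over all tested genes 0.274% were called higher and 0.199% lower. The log2 fold changes of the mRNAs ran from -0.25 to 0.04 and those of the rRNAs from -0.02 to 0.03, and the tRNAs had a median of 0.08. These values do not show that the groups are alike: the tRNA changes ran from -0.43 to 0.78.

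Nuclear genes that serve the mitochondrial genome were called at shares not far from, or below, those over all tested genes, except in the shortest list. Of 21 genes for transcription and maintenance of mitochondrial DNA, 0 were called in any comparison except OAP2 against Oxa, where 1 rose (4.76%, beside 6.02% over all tested genes): Rrm2b, a ribonucleotide reductase subunit that supplies nucleotides for mitochondrial DNA, with FPKM of 6.34, 6.96 and 6.79 in OAP2, against 5.10, 5.37 and 5.76 in Oxa (log2 fold change 0.31, SE 0.08, edgeR adjusted p = 0.0287), a call lost without OAP2 2, Oxa 1 or Oxa 2. Against PBS this list had 3 genes at an unadjusted p below 0.05 for OAP2, 4 for Oxa and 1 for APAP with edgeR. Over all 12036 genes tested there were 2499, 3261 and 1103. DESeq2 called 1 gene of the list for OAP2, 2 for Oxa and 0 for APAP. OAP2 against APAP had 1 at an unadjusted p below 0.05, beside 1835 of all genes tested, and DESeq2 called 0 of the list.

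Among 38 genes for processing, stability and modification of mitochondrial RNA, Oxa had 1 higher (2.63%) and 3 lower (7.89%) than PBS, beside 5.35% and 4.76% over all tested genes. Elac2, the enzyme that cuts at the 3′ ends of tRNAs, had FPKM of 21, 22.6 and 22.5 in Oxa, against 31.2, 28.1 and 29.8 in PBS. It fell without overlap, at a log2 fold change of -0.42 (SE 0.08, edgeR adjusted p = 0.00797). Gtpbp3, which modifies the wobble base of some mitochondrial tRNAs, had FPKM of 8.56, 8.42 and 8.91 in Oxa, against 5.53, 5.41 and 6.64 in PBS, and rose (log2 fold change 0.57, SE 0.10, edgeR adjusted p = 0.00545). Tbrg4, an RNA-binding protein of the FASTK family, fell in Oxa (log2 fold change -0.45, SE 0.09, edgeR adjusted p = 0.00839), as did Trit1, which modifies tRNAs beside the anticodon (-0.56, SE 0.12, 0.0124) and is named here after its values were seen. All 4 kept their calls in each of the 6 fits that left out a library. The list's median was -0.13 for Oxa against PBS.

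OAP2 had 2 genes of that list lower than PBS (5.26%) and 0 higher, beside 3.11% and 2.14% over all tested genes. Trmt10c, a subunit of mitochondrial RNase P that also methylates tRNAs, had FPKM of 12.2, 11.2 and 14.9 in OAP2, against 17.6, 19.7 and 20.2 in PBS, and fell without overlap (log2 fold change -0.57, SE 0.12, edgeR adjusted p = 0.0125). Tbrg4 fell in OAP2 too (log2 fold change -0.41, SE 0.09, edgeR adjusted p = 0.0183). Between OAP2 and Oxa directly, Elac2 was higher in OAP2 (log2 fold change 0.32, SE 0.08, edgeR adjusted p = 0.0220), while Gtpbp3 (-0.62, SE 0.10, 0.00179) and the pseudouridine synthase Pus1 (-0.32, SE 0.08, 0.0244) were lower. Trmt10c lost its call without OAP2 1 or OAP2 2, Tbrg4 in OAP2 without OAP2 1, OAP2 2 or PBS 1, and Elac2 between OAP2 and Oxa without Oxa 1 or Oxa 3. Pus1 was called in 1 of 6 such fits and Gtpbp3 in 6. Whether any of these bears on the mitochondrial transcripts was not tested.

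Of 7 regulators of mitochondrial biogenesis 6 were tested, so that each call is 16.7% of them. Over all tested genes 5.35% were called higher in Oxa and 3.11% lower in OAP2, each against PBS. Ppargc1b, a transcriptional coactivator, rose in Oxa with FPKM of 1.26, 1.72 and 1.27, against 0.920, 0.660 and 0.680 in PBS (log2 fold change 0.92, SE 0.26, edgeR adjusted p = 0.0398), and Gabpa, a DNA-binding factor for many respiratory genes, fell in OAP2 against PBS (-0.35, SE 0.09, 0.0366); each was called in 2 of 6 fits without a library. The nuclear partners of the mitochondrial mRNAs were 79 tested of 82 subunits of the respiratory complexes and ATP synthase. For Oxa against PBS they gave 1 call in each direction (1.27% each, beside 5.35% higher and 4.76% lower over all tested genes). Ndufb3 of complex I rose (log2 fold change 0.49, SE 0.14, edgeR adjusted p = 0.0386) and Cox6a2, a complex IV subunit known from muscle, fell at low levels (-1.53, SE 0.45, 0.0493). Between OAP2 and Oxa, Cox7a2l (0.54, SE 0.14, edgeR adjusted p = 0.0198) and Uqcrq of complex III (0.77, SE 0.23, 0.0451) were higher and Sdha of complex II (-0.26, SE 0.08, 0.0432) lower in OAP2. That is 2.53% higher and 1.27% lower, beside 6.02% and 6.91% over all tested genes. Cox7a2l kept its call except without Oxa 1 or Oxa 2, and each of the others was called in at most 1 of 6 such fits. For OAP2 against PBS edgeR called 0 of the 79, with 5 at an unadjusted p below 0.05, and DESeq2 called 3. For APAP against PBS edgeR called 0, with 8 at an unadjusted p below 0.05, and DESeq2 called 0. For OAP2 against APAP the counts were 0, 10 and 3. Over all 12036 genes tested, 2499, 1103 and 1835 had an unadjusted p below 0.05 in these 3 comparisons with edgeR.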

How the data were processed

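The members and gene lists were chosen with earlier results of these data known. Per the labels' protocols, RNA of 4T1 cells was bound to oligo(dT), and paired reads came from dUTP libraries. The submitters' processing notes list cutadapt (1.9), HISAT2 (2.2.1), StringTie (2.1.6), and, with no version, edgeR and DESeq2; their roles are not stated. The notes list mm9, yet all 37 members have their GENCODE M21 (GRCm38) positions. The deposited counts are estimated counts per gene, whole and unscaled. The deposited FPKM is, per the file headers, the authors' value per length and library size.

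TMM factors and a quasi-likelihood fit in edgeR 4.0.16 under R 4.3.3 gave 2-sided tests, with 1 mean per group over all 12 libraries. Genes needed an FPKM of 1 or more in 3 libraries, which left 12036. The SE was obtained as log2 fold change over the root of F, an approximation. The fit was tested on simulated data. Exact permutation tests had been planned for 3 summed measures (mRNA share, rRNA and tRNA per mRNA); these are given as values only, because the members were chosen with results known. Nuclear copies were sought with blastn 2.17.0. Any member may be named, and of each nuclear list up to 3 called genes per comparison, by the largest statistic, unless stated. Alternatives were DESeq2 1.42.0, limma 3.58.1 on log2(FPKM + 1) and log2(FPKM + 0.1), other scalings, no filter, a replicate block and leaving out each library.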

Additional observations from a re-analysis of the deposited data

How the results depend on the processing

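The numbers of called members depended on the processing where they were above 0. For Oxa against PBS, 3 members were called, 0 without the filter on low values, 1 with only the 6 libraries compared, and 0 to 3 when 1 library was left out. DESeq2 called 4 there, and limma called 2 on log2(FPKM + 1) and on log2(FPKM + 0.1). Of 2 alternatives chosen after seeing the data, scaling to the mitochondrial mRNAs gave 0 and limma with array quality weights gave 5. For OAP2 against Oxa, 7 were called, 1 without the filter, 1 scaled to the mitochondrial mRNAs, 12 with array quality weights and 0 to 6 with 1 library left out. For OAP2 against PBS, 0 were called, 1 with DESeq2, 1 with limma on log2(FPKM + 1) and on log2(FPKM + 0.1), 3 with array quality weights, and 0 to 3 with 1 library left out. APAP against PBS and OAP2 against APAP gave 0 under each of 16 alternatives. The causes of these differences were not tested. The difference in mRNA share between Oxa and PBS, 0.50 percentage points of counts, was 1.66 points of FPKM, another unit, and 0.14 to 0.73 with 1 library left out, lowest without PBS 2. No change of sign occurred for the called members or these summed measures.

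No pairing of the libraries by replicate number was seen, but pairs with different numbers were not set beside this check, so it cannot exclude pairing. Among 18 pairs with the same number in different groups, Pearson's r between their departures from the group means ranged from -0.152 to 0.155. With the replicate block, 4 members were called for OAP2 against Oxa, with mt-Ti, mt-Tw and mt-Tn at adjusted p = 0.0626, 0.0599 and 0.0519 in edgeR, and 3 for Oxa against PBS. Depth limits the rarer tRNA genes, several of which had fewer than 10 counts in a library.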
